A study of Mus musculus with 2 samples.

Results

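The clustered protocadherins are cell-surface adhesion proteins encoded by 3 neighbouring gene clusters, Pcdh alpha, Pcdh beta and Pcdh gamma. Members were taken by gene symbol, and 58 of 55536 annotated genes met the rule. They comprised 14 alpha, 22 beta and 22 gamma genes. The 58 genes carried 57 distinct symbols, because Pcdha11 was the name of 2 neighbouring alpha genes. The gene closer to the start of the cluster (ENSMUSG00000007440.10) is called the 5′ Pcdha11 gene here, and the other (ENSMUSG00000102206.5) keeps the plain name. No member carried the symbol Pcdha10, and the shared name need not mean a duplicated gene.

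Levels were measured by total RNA-seq in 2 libraries of left cerebral cortex, both from female B6CASTF1/J mice aged 4 days. This strain is the F1 hybrid of C57BL/6J and CAST/EiJ, obtained from The Jackson Laboratory, and no treatment or engineered allele was named for either library. Each library started from 300 ng of RNA with ERCC spike-in RNAs added. Both libraries formed 1 group with no contrast between conditions, and the only comparisons were between genes, between the libraries and between the tables of 2 quantifiers. The labels numbered the animals 03 and 04 but gave both libraries the same donor identifier, so p-values between the libraries measure only the difference between these 2 samples. In bulk tissue, fewer cells of a type and less RNA per cell cannot be told apart, and the tables do not separate the parental alleles.

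As background, each alpha or gamma gene has its own promoter and a large variable first exon, which encodes the extracellular cadherin repeats, the transmembrane segment and a short cytoplasmic stretch. This exon is spliced to constant exons that all genes of the cluster share and that encode the common cytoplasmic end, whereas most beta genes are single-exon genes. Single neurons are known to transcribe a small, largely random choice of the alternate promoters, with the boundary factor CTCF and cohesin at the chosen ones. The C-type genes at the 3′ ends of the alpha and gamma clusters are regulated differently and are transcribed more uniformly, and the proteins bind homophilically between cells, which serves neuronal self-recognition, dendrite spacing and survival of interneurons.

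In the GENCODE M21 annotation on mm10, all 58 genes lay on the plus strand of chromosome 18, within 911.7 kb from 36930184 to 37841873. The alpha cluster ran from 36930184 to 37187661 (257.5 kb), the beta cluster from 37264938 to 37524479 (259.5 kb) and the gamma cluster from 37661793 to 37841873 (180.1 kb). All 14 alpha genes shared 3 constant exons of 59, 89 and 2712 bases, and all 22 gamma genes shared 3 constant exons of 59, 89 and 1971 bases. The names gave 5 groups, namely 12 alternate alpha genes, 22 beta genes, 12 gamma A genes, 7 gamma B genes and 5 C-type genes (Pcdhac1, Pcdhac2, Pcdhgc3, Pcdhgc4 and Pcdhgc5). Pcdhgb8 was annotated as a polymorphic pseudogene. No sequences are printed here.

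Summed expected counts over genes were 29310517 in replicate 1 and 28844648 in replicate 2. The cortical label was checked against its markers, and all 8 cortical neuron genes used, such as Tbr1 and Neurod6, were detected, with summed levels of 2086.99 and 2022.94 TPM, a level corrected for transcript length and for the library's total. The libraries stood apart in markers of other tissue. The 8 choroid plexus and ependyma genes summed to 223.9 TPM in replicate 1 and 9.26 TPM in replicate 2, and 6 of the 8 were called lower in replicate 2. The 5 blood genes summed to 476.51 and 62.93 TPM, and all 5 were called lower. No marker of these 2 lists was at 0 in both libraries. A call here needed an adjusted p under 0.05 in the exact test described below and a log2 change of at least 1. Of all genes tested, 2.85% were called in either direction. Only 2 of 5 serotonergic neuron genes reached 1 TPM. Of 8 oligodendrocyte lineage genes 6 were detected, with sums of 126.54 and 133.46 TPM, and Opalin was at 0 in both libraries. All 6 striatum genes were detected, with sums of 80.7 and 82.23 TPM. So were all 6 meninges and fibroblast genes, with sums of 618.97 and 687.6 TPM.

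Nearly the whole family was detected at low to moderate levels. In the first quantifier's gene table, 57 of the 58 members (all but Pcdhb1) reached 1 TPM in both libraries, against 27.6% of all annotated genes and 59.8% of protein-coding genes. The members together held 526.67 TPM in replicate 1 and 546.88 TPM in replicate 2 (536.8 ± 14.3, SD, n = 2). Their median level was 6.69 and 7.33 TPM. The median mean level of all 15304 detected genes was 14.5 TPM. Gamma genes held the largest share, with 301.4 and 299.19 TPM (57.2% and 54.7% of the family), followed by alpha genes with 140.2 and 151.63 TPM and beta genes with 85.07 and 96.06 TPM. The 3 sums did not overlap between clusters in either library.

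**Figure D1:**
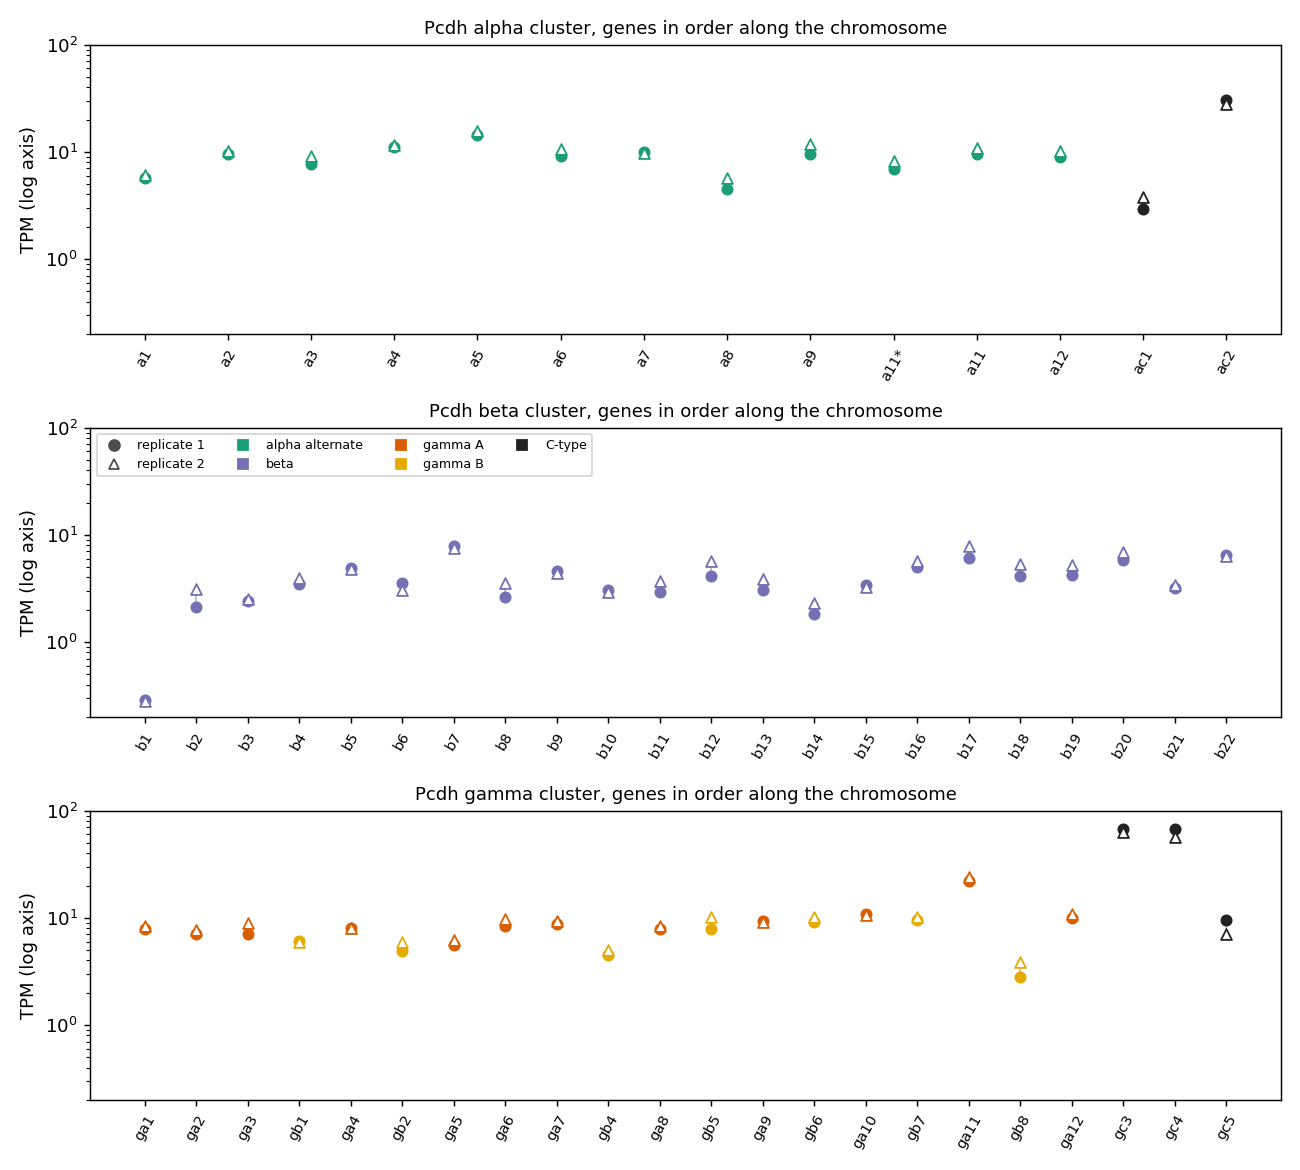
Level of each clustered protocadherin (TPM, log axis) in replicate 1 (filled circles) and replicate 2 (open triangles), with genes in their order along each cluster and colours for the 5 groups; a11* is the 5′ Pcdha11 gene. Pcdhgc3, Pcdhgc4 and Pcdhac2 stand above 28 TPM in both libraries, and Pcdhb1 lies below 0.3 TPM in both.

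The C-type genes, which are the ones known for more uniform transcription across neurons, took a large part of this total. The 5 C-type genes summed to 177.35 TPM in replicate 1 and 158.68 TPM in replicate 2, or 33.7% and 29.0% of the whole family. Their part of the gamma cluster was 47.8% and 42.3%, and their part of the alpha cluster was 23.7% and 21.1%. The 5 genes differed widely among themselves.

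Pcdhgc3 (ENSMUSG00000102918.1, 37806364 to 37841873), whose product is known to restrain Wnt signalling through Axin1, was at 67.9 and 62.67 TPM in replicates 1 and 2 (65.3 ± 3.7, SD, n = 2). Pcdhgc4 (ENSMUSG00000023036.14, 37815079 to 37841873), the C-type gene known to be needed for neuronal survival, was at 66.75 and 56.91 TPM (61.8 ± 7.0). The ranges of these 2 genes overlapped, and they ranked 1939 and 2064 among detected genes. Pcdhac2 (ENSMUSG00000102697.1, 37143503 to 37187657), the main protocadherin of serotonergic axons, was at 30.34 and 28.2 TPM (29.3 ± 1.5). Pcdhgc5 (ENSMUSG00000102543.5, 37819513 to 37841873) was at 9.46 and 7.08 TPM (8.27 ± 1.68). Pcdhac1 (ENSMUSG00000103255.1, 37090013 to 37187657) was lowest, at 2.9 and 3.82 TPM (3.36 ± 0.65). Apart from the top 2, no neighbours in this order overlapped in the first table, but in the second table Pcdhac2 (44.0 and 39.8 TPM) and Pcdhgc5 (48.7 and 36.02 TPM) overlapped.

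The alternate alpha genes were evenly spread. Their levels ran from 4.46 to 15.63 TPM with medians of 9.34 and 10.1 TPM. Pcdha5 was highest at 14.23 and 15.63 TPM, above Pcdha4 at 11.14 and 11.65 TPM and Pcdha9 at 9.61 and 11.7 TPM. Pcdha8 was lowest at 4.46 and 5.7 TPM, and Pcdha1, the first gene of the cluster, was at 5.75 and 6.08 TPM. In the first table Pcdha5 lay above every other alternate alpha gene in both libraries, whereas in the second Pcdha11 was higher in replicate 1 (31.5 against 19.8 TPM for Pcdha5). In the first table the ranges of Pcdha4 and Pcdha9 overlapped. The high place of Pcdha4 held in the first table only. In the second table Pcdha4, at 11.8 and 11.1 TPM, lay below the group medians of 11.9 and 13.1 TPM. The effective number of genes, which is the exponential of the entropy of the shares and equals the group size when all are equal, was 11.6 of 12 in both libraries.

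The beta genes, which lack the constant exons and so the shared cytoplasmic end, had the lowest levels per gene. Their medians were 3.51 and 3.92 TPM. Pcdhb7 led at 7.9 and 7.58 TPM, followed by Pcdhb17 at 6.11 and 7.92 TPM and Pcdhb22 at 6.51 and 6.4 TPM. The ranges of Pcdhb17 and Pcdhb7 overlapped. Pcdhb14 was at 1.84 and 2.31 TPM. Pcdhb1, at the 5′ end of the cluster, stood far below the rest with 0.29 and 0.28 TPM, from expected counts of 14 and 13. The effective number was 19.88 and 19.99 of 22. Pcdhb1 was also the beta gene with the most distant coding sequence, and its closest member by sequence identity was Pcdhb8 at 62.5%.

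Among the gamma A genes the medians were 8.15 and 9.07 TPM, and 1 gene stood above the others. Pcdhga11 was at 21.87 and 24.13 TPM (23.0 ± 1.6, SD, n = 2) and held 19.5% and 19.9% of the gamma A sum. Pcdhga10 followed at 10.88 and 10.62 TPM and Pcdhga12 at 9.99 and 10.87 TPM, so that Pcdhga11 did not overlap any other gamma A gene. Pcdhga5 was lowest at 5.57 and 6.14 TPM, and Pcdhga2 was at 6.99 and 7.72 TPM. The effective number was 11.2 and 11.1 of 12. The gamma B genes had medians of 6.08 and 5.91 TPM. Pcdhgb7 was at 9.52 and 10.25 TPM, Pcdhgb6 at 9.15 and 10.18 TPM and Pcdhgb5 at 7.92 and 10.08 TPM, and these 3 ranges overlapped. Pcdhgb4 was at 4.47 and 4.98 TPM, and the polymorphic pseudogene Pcdhgb8 was lowest at 2.83 and 3.87 TPM. The effective number was 6.53 and 6.58 of 7.

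The order of genes along the clusters was set against their levels as a description. Over the 12 alternate alpha genes, Spearman's rho between position and TPM was 0.00 in replicate 1 and 0.08 in replicate 2. Over the 22 beta genes it was 0.47 and 0.51, and over the 19 gamma A and B genes it was 0.50 and 0.53, with higher levels toward the 3′ end. In the second table the alpha values were 0.04 and 0.18, the beta values 0.50 and 0.49 and the gamma values 0.53 and 0.51. Genes of a cluster share their library, and alpha and gamma genes also share reads from the constant exons.

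Differences between the libraries were small for single genes. Expected counts were compared by an exact conditional binomial test with TMM scaling and Benjamini-Hochberg adjustment over 18492 genes, which covers counting error only and compares these libraries. No member passed both an adjusted p of 0.05 and a change of at least 1 on the log2 scale, where 2.85% of all genes tested did. At an unadjusted p under 0.05 the same test gave 20 of 58 members, against 33.7% of all genes tested. Without the fold requirement, 11 members were higher in replicate 2 (background 12.4%) and 3 were lower (background 11.9%). With library totals as the scaling the split was 13 higher and 3 lower (background 15.4% and 7.68%). In the second table the split was 6 higher and 9 lower with TMM (background 13.7% and 15.6%), and 11 higher and 4 lower with library totals (background 18.4% and 8.42%), so the split over the family depended on the quantifier and the scaling. Library totals moved the median log2 ratio of all tested genes from 0.00 to 0.04 in the first table and to 0.06 in the second. No member passed with the fold requirement in these, where 3.06% (first table, totals), 3.42% (second, TMM) and 4.04% (second, totals) of genes did. The pair of libraries ordered the 58 members alike (Spearman's rho 0.97 in each table, a description over genes that share reads).

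**Figure D2:**
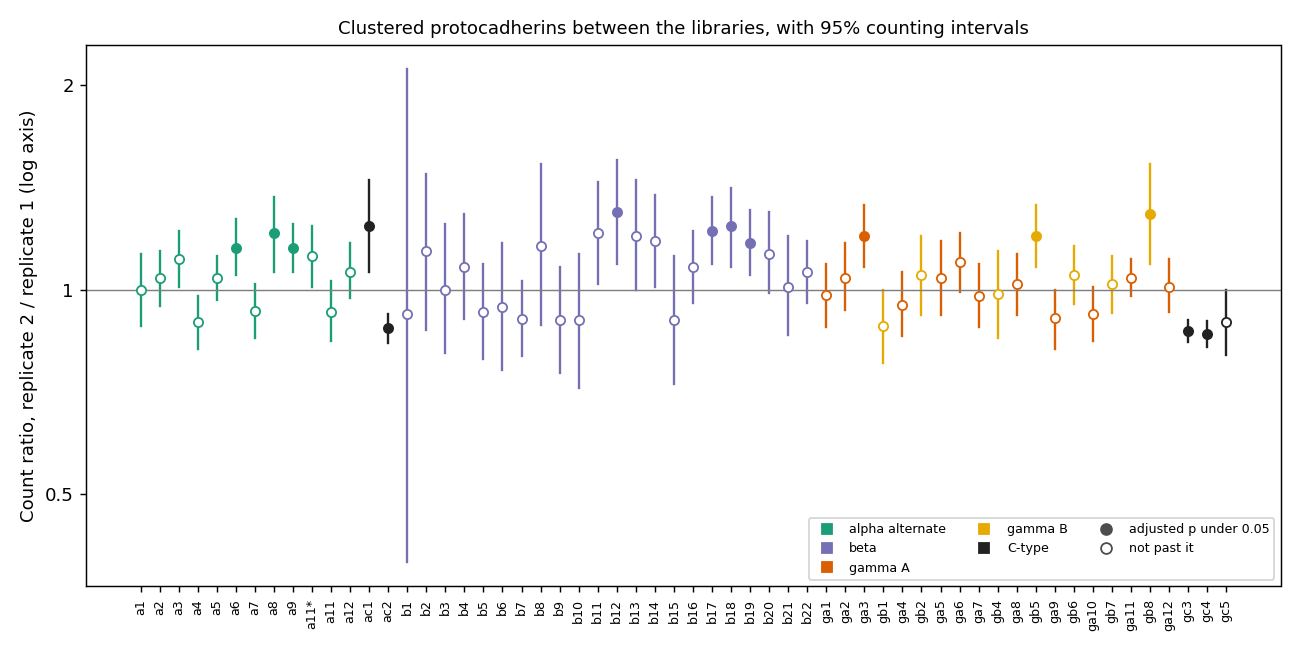
Scaled count of each member in replicate 2 divided by that in replicate 1 (log axis), with 95% counting intervals as bars, genes in their order along the clusters, colours for the groups and filled points where the adjusted p was under 0.05; a11* is the 5′ Pcdha11 gene. Pcdhac2, Pcdhgc3 and Pcdhgc4 are the filled points below 1, at 0.878, 0.869 and 0.861.

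The 3 members that were lower in replicate 2 were all abundant C-type genes. Pcdhgc3 had expected counts of 6014.95 and 5271.03, a scaled ratio of 0.869 (95% interval 0.837 to 0.902, exact binomial test, adjusted p = 5.34e-12). Pcdhgc4 had counts of 4269.31 and 3706.56, a ratio of 0.861 (0.824 to 0.9, exact adjusted p = 1.06e-09). Pcdhac2 had counts of 3410.41 and 3019.09, a ratio of 0.878 (0.836 to 0.922, exact adjusted p = 3.72e-06). Pcdhgc5 had counts of 663.97 and 600.53 and a ratio of 0.897, with an exact adjusted p of 0.166. Pcdhac1 differed in the other direction, with counts of 299.53 and 376.28 and a ratio of 1.24 (1.06 to 1.45, exact adjusted p = 0.0267). So 3 of 5 C-type genes were lower and 1 was higher, and these counts were the same with library totals and with DESeq2 size factors. The background was 12.4% higher and 11.9% lower with TMM. It was 15.4% and 7.68% with library totals, and 12.3% and 11.9% with DESeq2 size factors. By the second quantifier 4 of 5 C-type genes were lower with TMM and none was higher (background 15.6% lower and 13.7% higher). With library totals 2 were lower and 1 was higher there (background 8.42% lower and 18.4% higher).

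The summed C-type counts were 14658 and 12973, a scaled ratio of 0.878 (95% counting interval 0.857 to 0.899). The other 53 members summed to 30960 and 32620, a ratio of 1.04 (1.03 to 1.06). These 2 intervals did not overlap, nor did they in the second table, where the ratios were 0.862 (0.842 to 0.883) for the C-type genes and 0.999 (0.984 to 1.01) for the others. By group, the first table gave ratios of 1.04 (1.01 to 1.07) for the alternate alpha genes, 1.09 (1.05 to 1.12) for the beta genes, 1.01 (0.987 to 1.04) for the gamma A genes and 1.06 (1.01 to 1.1) for the gamma B genes. In the second table the ratios were 1.01 (0.98 to 1.03) for the alternate alpha genes and 1.05 (1.01 to 1.08) for the beta genes. There they were 0.96 (0.935 to 0.986) for the gamma A genes and 1.00 (0.959 to 1.05) for the gamma B genes. The choroid plexus markers (223.9 and 9.26 TPM) and the blood markers (476.51 and 62.93 TPM) moved in the same direction as the summed C-type counts. So did the astrocyte and radial glia markers, which summed to 942.59 and 904.46 TPM, with a median log2 count ratio of -0.12, none of 8 higher and 4 of 8 lower past the adjusted p. The part of these cell types in the difference was not tested. The cortical neuron markers had a median log2 count ratio of -0.07, with 1 of 8 higher and 4 of 8 lower past the adjusted p. Over all genes tested 12.4% were higher and 11.9% lower past it. The median log2 count ratio was 0.01 for microglia, -0.02 for endothelial, -0.004 for meninges and fibroblast and -0.001 for striatum markers. It was -0.09 for oligodendrocyte lineage, 0.07 for serotonergic neuron and 0.02 for olfactory sensory neuron markers.

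The 10 members other than C-type genes that passed the adjusted p were all higher in replicate 2 in the first table. They were Pcdha6, Pcdha8 and Pcdha9, the beta genes Pcdhb12, Pcdhb17, Pcdhb18 and Pcdhb19, and the gamma genes Pcdhga3, Pcdhgb5 and Pcdhgb8. The highest ratio was that of Pcdhb12, with counts of 234.11 and 307.06, at 1.3 (1.09 to 1.55, exact adjusted p = 0.0151). Pcdhgb8 followed with counts of 248 and 323.42 at 1.29 (1.09 to 1.53, exact adjusted p = 0.0151), and the smallest of the 10 was Pcdha6 or Pcdha9, each at 1.15. By the second quantifier 5 of these 10 were past the adjusted p and higher as well, while Pcdha6, Pcdhb12, Pcdhb18, Pcdhb19 and Pcdhgb8 were not, with exact adjusted p from 0.0781 (Pcdhb19) to 0.513 (Pcdha6). Members other than C-type genes gave 6 higher and 5 lower there. The median log2 ratio over all 58 members was 0.06, with a range of -0.22 to 0.38, and the median over all detected genes was -0.01. The median size of the log2 ratio was 0.14 for members and 0.12 for all detected genes.

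The tables of the 2 quantifiers agreed on the order of the members, with a Spearman's rho of 0.98 in replicate 1 and 0.96 in replicate 2. The second table gave higher TPM for most genes, with a median log2 ratio to the first, on the log2(TPM + 1) scale, of 0.54 and 0.52 over detected genes and of 0.39 and 0.36 over the members. A gene was counted as apart when this log2 ratio reached 1, or -1, in replicate 1 and in replicate 2 alike, which held for 8.94% of detected genes. It held for 1 member, Pcdhgc5. After the general shift was taken off, a choice made after seeing the data, 5.06% of genes and again Pcdhgc5 alone among the members were apart. Pcdhgc5 was at 9.46 and 7.08 TPM in the first table and at 48.7 and 36.02 TPM in the second.

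**Figure D3:**
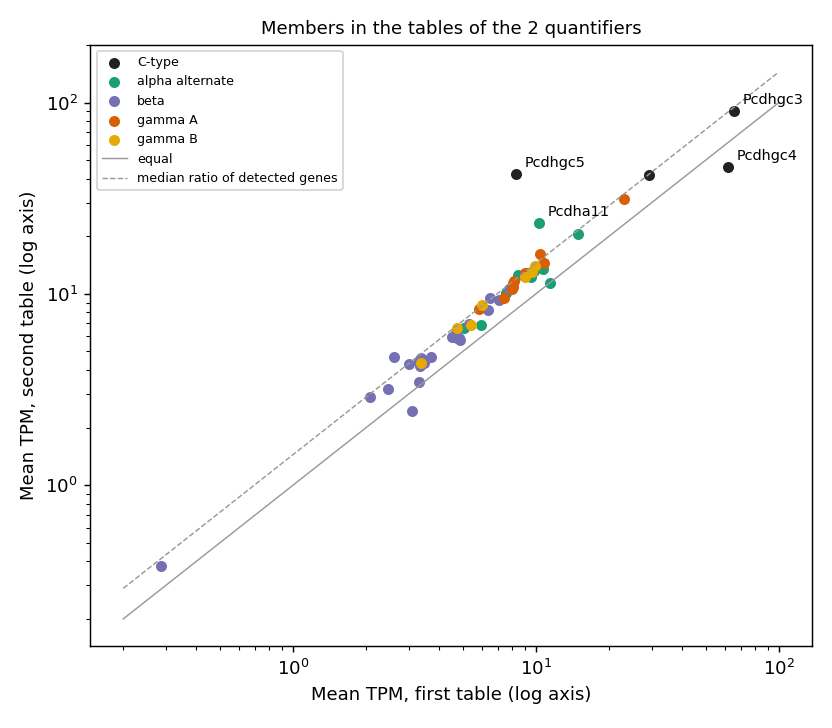
Mean TPM of each member over the 2 libraries in the first table (x axis) and in the second table (y axis), both on log axes, with lines for equality and for the median ratio of detected genes, taken on the log2(TPM + 1) scale. Most members lie close to the dashed line, Pcdhgc5 lies above it, and Pcdhgc4 lies below the line of equality.

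This difference lay in a short transcript. The full-length Pcdhgc5-201 (4741 bases) was at 6.05 and 5.52 TPM in the first table and at 8.4 and 7.28 TPM in the second. Pcdhgc5-204 is 593 bases long, and in the first table it was at 2.08 and 0.38 TPM from expected counts of 19.99 and 3.49. In the second table it was at 39.0 and 26.9 TPM from estimated counts of 147.4 and 100.01. Its first exon measures 147 bases, and 29.4% of its 100-base windows occurred in no other gene.

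Pcdhgc4 differed between the tables in the opposite direction, with 66.75 and 56.91 TPM in the first and 46.5 and 45.7 TPM in the second. The first table gave the full-length Pcdhgc4-201 (5024 bases) 25.74 and 26.44 TPM, and gave Pcdhgc4-203 (2272 bases) 36.24 and 25.65 TPM. Pcdhgc4-203 consists of a first exon of 153 bases and the 3 constant exons, and 6.95% of its windows occurred in no other gene. Its expected counts were 1529.46 and 1030.83 with posterior standard deviations of 132.92 and 128.27. The second table placed no reads on it and gave Pcdhgc4-201 43.4 and 41.9 TPM. The count of Pcdhgc4-201 in the first table was 2462.11 and 2408.3, so most of the fall in the count of Pcdhgc4 between the libraries lay in Pcdhgc4-203. In the second table the count of Pcdhgc4-201 was 3130.62 and 2964.44. The position of Pcdhgc4 beside Pcdhgc3 at the top of the family therefore held in the first table only, since the second gave Pcdhgc3 95.3 and 84.7 TPM, and there Pcdhgc4 overlapped Pcdhgc5.

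**Figure D4:**
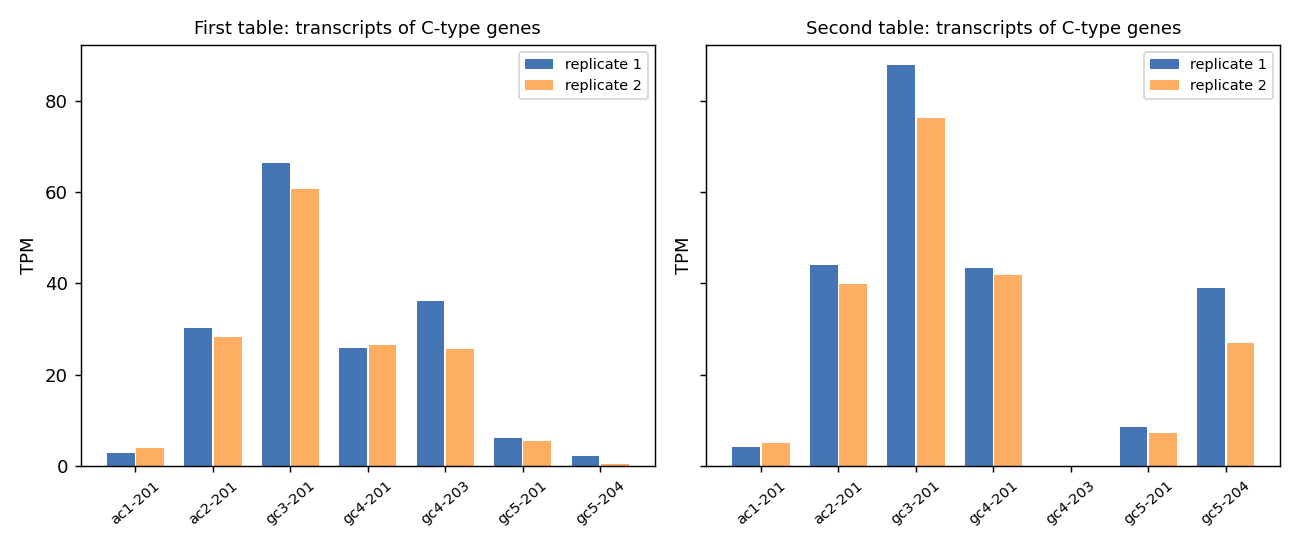
Level of 7 transcripts of the C-type genes (TPM) in the first table (left) and the second table (right), with bars for replicate 1 and replicate 2. Pcdhgc4-203 reaches 36.24 TPM in the first table and is at 0 in the second, while Pcdhgc5-204 is at most 2.08 TPM in the first and 39.0 TPM in the second.

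Pcdha11 showed a like dependence in 1 library. Its level was 9.64 and 10.89 TPM in the first table and 31.5 and 15.2 TPM in the second, so the tables were apart by the log2 threshold in replicate 1 alone. In the second table its 625-base transcript Pcdha11-204 was at 19.4 and 0.61 TPM. The 5′ Pcdha11 gene was at 6.87 and 8.16 TPM in the first table and at 9.19 and 11.0 TPM in the second.

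Over the family, 36 members had 1 annotated transcript and 22 had several. In the first table the leading transcript was the same in both libraries for 19 of these 22, and the second table also gave 19. The same transcript led in both libraries and both tables for 15 genes. The 7 others were Pcdha2, Pcdha11, Pcdhb2, Pcdhgb1, Pcdhgb4, Pcdhgc4 and Pcdhgc5. Members had 12 transcripts annotated as retained-intron or processed transcripts, in 11 genes. By the first quantifier 11 of the 12 had a higher expected count in replicate 2 (all but Pcdhgc4-202), and in the second table all 12 did. Their summed counts were 1163.85 and 2000.57 in the first table, or 7.02% and 13.2% of the counts of those genes, and 1653.25 and 2505.33 in the second. Over all genes in the first table, retained-intron transcripts held 3.63% of all transcript counts in replicate 1 and 4.42% in replicate 2. Processed transcripts held 1.58% and 1.68%. These shares are of all transcript counts and are not on the scale of the members' percentages. How many of all such transcripts were higher in replicate 2 was not counted. The part of the general difference in the members' values was not tested. An example is Pcdha11-205, an unspliced model at 99.06 and 358.39 counts in the first table and 218.4 and 449.7 in the second. The coding Pcdha11-202 was at 563.7 and 175 counts in the first table, with posterior standard deviations of 155.72 and 77.94. The second table gave Pcdha11-202 at most 1.09 counts, and placed 305.3 and 9.63 counts on another coding transcript, Pcdha11-203.

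Reads from constant exons match every gene of a cluster. For the transcript used for each gene, the share of 100-base windows that occurred in no other annotated gene ran from 3.51% to 52.3% in the alpha cluster (median 44.2%), from 92.3% to 100% in the beta cluster (median 99.8%) and from 35.998% to 59.3% in the gamma cluster (median 55.9%). In the variable exons of the 5 C-type genes this share was 100%. Pcdha4 was lowest at 3.51%, and 43.9% of its windows also occurred in Gm42416, a gene model of the same locus and strand outside the family. Gm42416 also held 7.6% of the windows of Pcdhga1, so it joins exons of Pcdha4 with constant exons of the gamma cluster. The first table left Gm42416 at 0 reads, and the second gave it 117.2 and 148.1 counts, so the level of Pcdha4 is uncertain to the extent that reads match both. Pcdhga4 was next at 35.998%.

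The deposited posterior standard deviation of the count, which measures how freely shared reads could be reassigned, followed the same division. Its median was 3.88% and 3.55% of the count for the alternate alpha genes, 3.15% and 3.03% for gamma A, 4.32% and 5.01% for gamma B, 2.94% and 3.11% for the C-type genes and 0.42% and 0.35% for the beta genes. The median over all detected genes was 0. No member had a posterior standard deviation of at least 2 times the square root of its count, where 1.41% of genes did, and Pcdhgc4 came nearest at 1.92 in both libraries. At 0.5 times the root, a threshold added after seeing the data, 36 members were past it, namely all 14 alpha and all 22 gamma genes and none of the 22 beta genes, against 6.19% of all genes. Pcdhgb8, the lowest gamma gene, had the widest value, at 7.14% of its count.

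**Figure D5:**
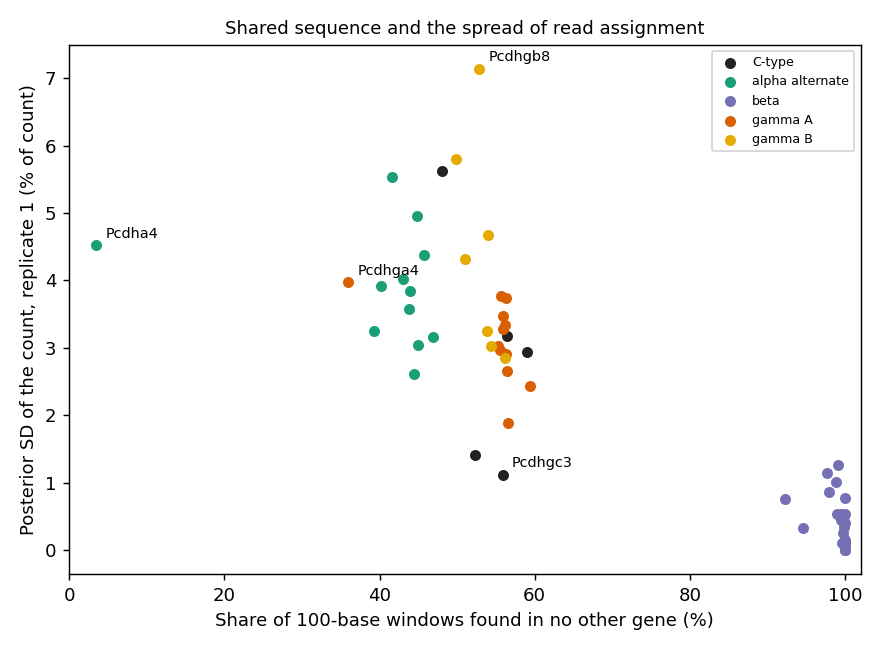
Share of each member's 100-base windows that occur in no other annotated gene (x axis, percent) against the posterior standard deviation of its count in replicate 1 (y axis, percent of the count), with 1 point per gene coloured by group. The 22 beta genes sit above 92% with values of at most 1.26%, and the alpha and gamma genes sit below 60% with values from 1.12% to 7.14%.

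The coding parts of the variable exons, which hold the cadherin repeats, were aligned for all 1653 pairs of members. In these, alternate alpha genes were a median of 77.7% identical to each other (74.8% to 85.0%), beta genes 74.8% (59.5% to 89.8%), gamma A genes 71.0% (68.1% to 79.3%) and gamma B genes 72.0% (70.3% to 80.7%). C-type genes were 59.8% identical to each other (58.5% to 61.5%), within the range of pairs from different groups. The closest pairs were Pcdhb7 with Pcdhb9 at 89.8%, Pcdhb6 with Pcdhb8 at 89.7% and Pcdhb11 with Pcdhb12 at 88.5%, and the closest alpha pair was Pcdha7 with Pcdha8 at 85.0%. First-table levels did not overlap for Pcdhb7 (7.9 and 7.58 TPM) and Pcdhb9 (4.62 and 4.4 TPM), nor for Pcdha7 (9.86 and 9.72 TPM) and Pcdha8 (4.46 and 5.7 TPM), and they overlapped for Pcdhb6 (3.56 and 3.06 TPM) and Pcdhb8 (2.62 and 3.58 TPM). Pcdhb11 was at 2.91 and 3.73 TPM and Pcdhb12 at 4.11 and 5.66 TPM, with no overlap.

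The non-clustered delta protocadherins, relatives whose genes lie outside the clusters, were higher per gene. All 10 were detected, with medians of 45.4 and 44.6 TPM. Pcdh10 was at 90.4 and 93.33 TPM, Pcdh9 at 73.22 and 88.57 TPM and Pcdh1 at 72.67 and 77.09 TPM, and Pcdh20 was lowest at 6.82 and 7.88 TPM. In the first table Pcdhgc3 and Pcdhgc4 alone among the clustered members exceeded the delta median. By the exact test no delta gene passed with the fold requirement (background 2.85%). By adjusted p alone none was higher in replicate 2 (background 12.4%), and 2 were lower, Pcdh7 and Pcdh8 (background 11.9%).

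Genes known to act at the clusters were all present. Of 20 listed regulators, all 20 were detected, with medians of 31.5 and 33.9 TPM. Trim28, a corepressor that recruits histone methylation, was at 197.9 and 205.95 TPM, Kdm1a, a histone demethylase, at 95.23 and 96.23 TPM and Dnmt3a, a de novo DNA methyltransferase, at 88.78 and 102.41 TPM. Dnmt3b, the related enzyme known to methylate the alternate promoters early in development, was lowest at 1.22 and 1.97 TPM. Ctcf was at 34.81 and 40.14 TPM, and Rad21, a cohesin subunit, at 45.24 and 46.02 TPM. None of the 20 passed with the fold requirement (background 2.85%). By adjusted p alone 4 were higher (background 12.4%) and 2 lower (background 11.9%) in replicate 2.

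Partners that act on or below the cytoplasmic parts were also all detected. The 17 listed genes had medians of 52.0 and 51.2 TPM. Marcks, an actin-binding kinase substrate, was at 278.24 and 266.09 TPM, Abi2 at 226.09 and 234.24 TPM and Nckap1 at 127.18 and 126.32 TPM, the last 2 being subunits of the WAVE actin-regulating complex. The receptor kinase Ret was lowest at 3.13 and 3.29 TPM. None of the 17 passed with the fold requirement (background 2.85%). By adjusted p alone none was higher (background 12.4%) and 7 were lower (background 11.9%) in replicate 2.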

How the data were processed

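Total RNA-seq tables of 2 libraries were used, with gene and transcript tables by one quantifier (the first) and transcript tables by another (the second). The deposited file descriptions name mm10 and GENCODE M21. Which quantifiers and versions were run, and whether counting used strand, is not given in the sources used here. The first tables give, per the file headers, expected counts, in which shared reads were split, TPM, the posterior standard deviation of the count, and the percent of a gene's TPM held by each transcript, as the authors deposited them. The second tables give estimated counts and TPM, as deposited, with column names as in kallisto (those of the first are as in RSEM). The authors' TPM values are scaled by effective length. CAST/EiJ variants were not considered.

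Second-table values were summed to genes. A gene was detected at 1 TPM in both libraries. Expected counts were rounded and scaled by TMM (edgeR 4.0.16, R 4.3.3), and genes whose counts summed to 20 or more entered an exact conditional binomial test (scipy 1.17.1) with Benjamini-Hochberg adjustment. This test covers counting error only. The test was tested on simulated data. A quantifier ratio used log2(TPM + 1). Depths were 29310517 and 28844648 counts in the first tables and 29816512 and 29854009 in the second. Windows and coding parts came from the GENCODE M21 transcripts, and identities from pairwise alignment (Biopython 1.88). Alternatives were the second quantifier, posterior means, other scalings (library totals, DESeq2 1.42.0 size factors), other thresholds and each library alone.

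Values are named for every C-type gene, the 3 highest and 2 lowest of each other group, members called between libraries and members apart between quantifiers. The transcripts of Pcdhgc4 and Pcdha11, the pairs closest in sequence, and Ctcf, Rad21, Pcdh7 and Pcdh8, were chosen with their values known. Some markers of the cortical neuron list are not reported here and were left out of its values. Members and gene lists were chosen with earlier results of these data known. In the design the posterior standard deviation was taken to be near the root of the count for unshared reads, but it proved to be near 0, which is why a lower threshold was added.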

Additional observations from a re-analysis of the deposited data

How the results depend on the processing

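The median level of the members was 7.01 TPM and became 9.62 TPM in the second quantifier's table, 6.69 to 7.33 TPM with either library left out. The same table moved the cluster sums from 145.9 to 204.1 TPM (alpha), 90.6 to 117.9 TPM (beta) and 300.3 to 406.6 TPM (gamma), and the list medians from 45.0 to 50.6 TPM (delta protocadherins), 32.7 to 53.3 TPM (regulators) and 51.6 to 74.8 TPM (partners). Posterior mean TPM gave a gamma sum of 291.9. Expected counts in place of TPM moved the gamma share from 56.0% to 53.7% and the C-type share of alpha from 22.4% to 25.1%. Without the fold threshold 14 members differed between the libraries in place of 0. The count of members apart between the quantifiers was 1 to 2 with a library left out, and read sharing passed for 36 members in place of 0 at the threshold of 0.5 added after seeing the data.

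Of single members, 54 of 58 moved by more than the spread of the libraries in the second table and 10 of 58 with posterior means. How many of all genes moved was not counted. The second table was higher for detected genes in general, by a median log2 ratio of 0.54 and 0.52, against 0.39 and 0.36 over the members. No paired analysis was possible because there was 1 group, and with 2 libraries an exact sign-flip test cannot go below p = 0.5. Leading transcripts need both libraries and give no value with 1 left out. Depth limits Pcdhb1, with counts of 14 and 13.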

Other observations

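The locus also holds 27 genes that are no members, of which 7 were detected (against 27.6% of all annotated genes) and 8 were at 0 in both libraries. The 12 minus-strand antisense and processed-transcript genes summed to 5.99 and 6.62 TPM. Of these 12, Gm26672 (2.08 and 2.66 TPM) and BC037039 (2.37 and 1.69 TPM) were detected, and 3 were at 0. Only those of the 27 that met the count minimum entered the exact test, so the 27 are not its denominator. Of those tested, 3 were called higher in replicate 2 with the fold requirement (background 2.85% in either direction). These 3, all with low counts, were chosen here after their values were seen. Gm18150 had counts of 13 and 41 (ratio 3.13, exact adjusted p = 0.00169), Gm19035 had 27 and 57 (ratio 2.09, exact adjusted p = 0.00981) and Gm10545 had 16.26 and 41 (ratio 2.54, exact adjusted p = 0.00882).

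A pair of plus-strand models that share exons with the members took different reads in the tables. Gm38182 was at 1.13 and 1.73 TPM in the first table and at 51.3 and 68.4 TPM in the second, from 11.37 and 25.46 counts against 323.0 and 419.0. Gm42416 was at 0 in the first table and at 3.03 and 3.91 TPM in the second.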
